A study of Homo sapiens with 12 samples.

Results

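Cathepsins are the proteases that break down proteins in lysosomes. The 10 cathepsin genes described here, CTSA, CTSB, CTSC, CTSD, CTSH, CTSK, CTSL, CTSS, CTSW and CTSZ, were found by their symbols among 20003 genes measured by mRNA sequencing. The study asked how OGP46, a small molecule under test as an agent of differentiation, changes gene expression in acute myeloid leukemia cells. The cells were NB4, an established line of acute promyelocytic leukemia that carries PML-RARα, and Kasumi-1, an established line that carries the t(8;21) fusion AML1-ETO. Each line had a control group of 3 samples that received DMSO and an OGP46 group of 3 samples that received 1 μM OGP46, with an incubation of 48 h for both by the labels, which gives 12 samples in 4 groups. Each line is a single culture model of its disease, nothing in the labels says whether the 3 samples of a group came from separate cultures, and p-values then measure only the spread between these samples, which may be technical. Values are FPKM, fragments of a gene scaled to its transcript length and to the total mapped, and because they are divided by length they allow levels of different genes to be set side by side.

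CTSA is a serine carboxypeptidase and CTSD an aspartic protease, and the other members are cysteine proteases of the papain family. Cathepsins are made as inactive precursors, carried to the lysosome largely by mannose 6-phosphate receptors, and activated by removal of a propeptide. Cystatins and some serpins restrain those that escape. In myeloid cells CTSC removes the propeptide of the granule serine proteases elastase, proteinase 3 and cathepsin G, CTSS cuts the invariant chain CD74 during antigen presentation, and CTSB, CTSD and CTSL degrade the bulk of the protein that enters lysosomes. CTSW is known from NK cells and cytotoxic T cells, and CTSK from the osteoclast, where it degrades collagen.

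The labels of both lines were checked against marker genes. All 6 Kasumi-1 markers, among them CD34, KIT and RUNX1T1, were lower in NB4, and their summed level was 273 to 310.2 FPKM in the Kasumi-1 controls against 0.737 to 3.87 FPKM in the NB4 controls. The 5 genes listed for NB4 marked it poorly, since STAB1 and IGFBP2 were higher in NB4, HGF was lower, FGF13 was at 0 in every NB4 sample, and PTGDS was at or near 0 in both lines. No library went against its line, but NB4 control sample 3 held CD34 at 1.35% and KIT at 0.950% of the Kasumi-1 control means, the most of any NB4 sample. Among the Kasumi-1 controls, sample 2 held the most of several genes that are high in NB4, such as NKG7 at 7.19% of the NB4 control mean. The source of these traces was not tested. For the cathepsins called between the lines, the range on leaving out each control sample in turn, these libraries included, is given below.

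Members were compared by limma on log2(FPKM + 0.1), in a fit to every gene that averaged 0.1 FPKM or more, with p-values adjusted by the Benjamini-Hochberg method over all of these genes. The call required an adjusted p under 0.05 together with a log2 difference of 0.58 or more in either direction, a fold of 1.49. All 10 cathepsins passed the filter on low values in every comparison. Within each line the sample numbers in the labels were taken to pair a control with an OGP46 sample, which the study does not state. The adjusted p with this number as a block in the model is given where it alters the call of one of the 10. With 3 samples against 3, an exact permutation test of one gene cannot give a two-sided p below 0.10, and none is quoted.

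**Figure D1:**
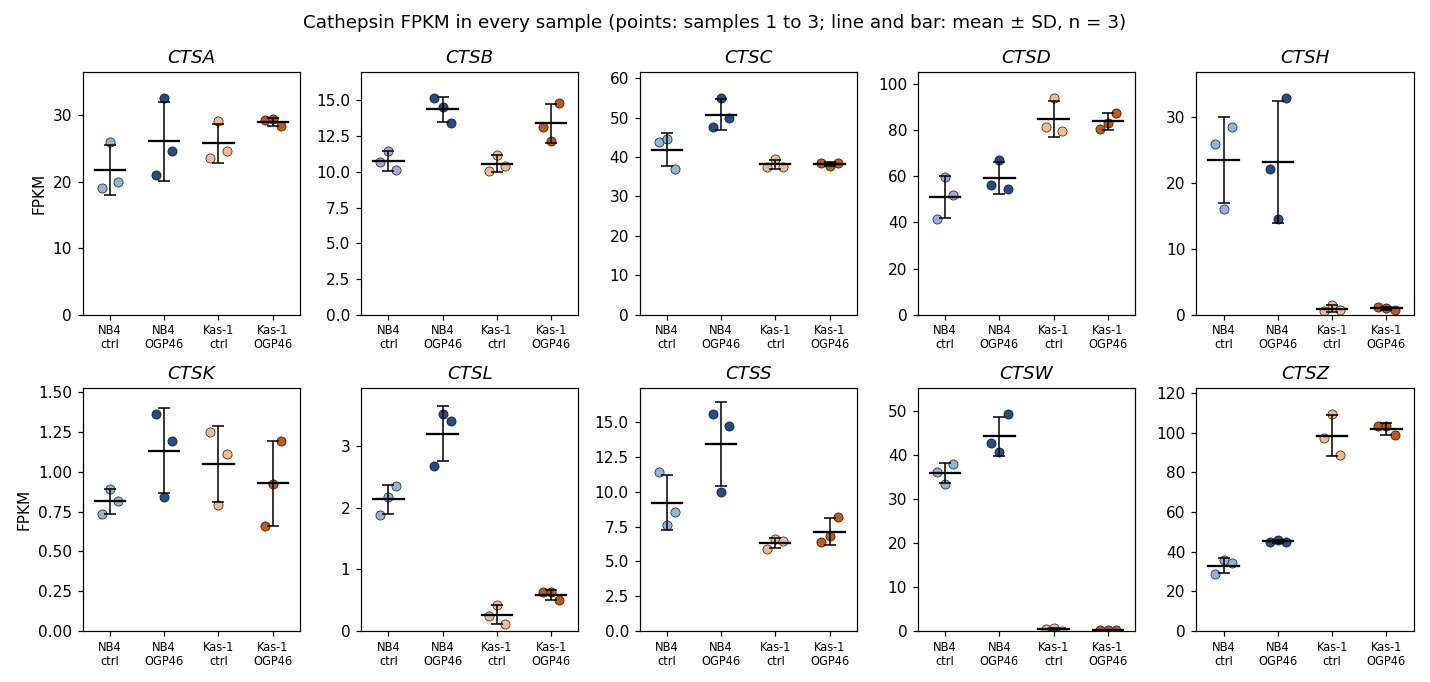
FPKM of each cathepsin (vertical axes, from 0) in the 4 groups, with one point per sample and the mean ± SD of 3 samples. CTSW, CTSH and CTSL stand high in NB4 and near 0 in Kasumi-1, CTSZ and CTSD stand higher in Kasumi-1, and the OGP46 points of NB4 lie above the controls for CTSB, CTSC, CTSL, CTSW and CTSZ.

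In FPKM, CTSD was the most abundant cathepsin of the NB4 controls at 50.9 ± 8.96 (SD, n = 3), followed by CTSC at 41.9 ± 4.17, CTSW at 35.9 ± 2.28 and CTSZ at 32.9 ± 3.62. Neighbours among these 4 overlapped in their ranges. CTSH and CTSA came next, then CTSB and CTSS, while CTSL at 2.14 ± 0.231 FPKM and CTSK at 0.816 ± 0.0795 FPKM were lowest, with no overlap between CTSS, CTSL and CTSK. In the Kasumi-1 controls the order began with CTSZ at 98.5 ± 10.4 FPKM and CTSD at 84.8 ± 7.87 FPKM, whose ranges overlapped, and went on with CTSC, CTSA, CTSB and CTSS, each apart from the next. The 4 lowest there were CTSK, CTSH, CTSW and CTSL, with means of 1.05, 0.949, 0.408 and 0.265 FPKM and ranges that overlapped from each to the next.

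The members lie at several places of the genome (GRCh38, the build the submitters name as hg38, with genes from GENCODE release 29). CTSL, at chr9:87725519-87731393 on the plus strand, overlaps no other gene and shares 0.752% of its 50-base windows with pseudogenes of its own family. CTSK and CTSS are neighbours on the minus strand of chromosome 1, at chr1:150796208-150808323 and chr1:150730196-150765957, with 30250 bases between them. CTSW, at chr11:65879809-65883741 on the plus strand, overlaps FIBP on the other strand, and CTSA, at chr20:45890144-45898820, overlaps PLTP and NEURL2 on the other strand. The library kit keeps strand, but whether the counting used it is not given in the sources used here, so reads of such pairs cannot be told apart with certainty. CTSD, at chr11:1752752-1764573 on the minus strand, shares 60.6% of its windows with the annotated gene AC068580.4 on the same strand, and its level is uncertain to that extent.

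Promoter sequences are shown for CTSA and CTSD, the pair of cathepsins whose levels varied most alike over the samples, and for CTSL, the member with the largest OGP46 difference in each line. They come from RefSeq (GRCh38.p14) and run from 250 bases before to 50 bases after the start that RefSeq gives the gene. Each is written 5′ to 3′ on the strand of the gene. Windows were read for 6 of the 10 members, and those of CTSB, CTSK, CTSS and CTSW were not examined. The starts of the 3 shown lie inside the GENCODE bounds given above and not at their outer ends. Capitals mark CACGTG, the core of the E-box element to which the lysosomal regulators TFEB and TFE3 bind, and this motif reads the same on both strands. The CTSA window is chr20:45891085-45891384 on the plus strand, the CTSD window is chr11:1763878-1764177 on the minus strand, and the CTSL window is chr9:87725869-87726168 on the plus strand.
CTSA: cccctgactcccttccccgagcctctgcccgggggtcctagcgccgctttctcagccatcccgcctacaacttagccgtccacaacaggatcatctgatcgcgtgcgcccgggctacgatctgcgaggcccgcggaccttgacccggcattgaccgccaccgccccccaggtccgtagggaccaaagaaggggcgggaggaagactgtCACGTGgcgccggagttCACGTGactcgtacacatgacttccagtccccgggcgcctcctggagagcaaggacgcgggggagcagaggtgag
CTSD: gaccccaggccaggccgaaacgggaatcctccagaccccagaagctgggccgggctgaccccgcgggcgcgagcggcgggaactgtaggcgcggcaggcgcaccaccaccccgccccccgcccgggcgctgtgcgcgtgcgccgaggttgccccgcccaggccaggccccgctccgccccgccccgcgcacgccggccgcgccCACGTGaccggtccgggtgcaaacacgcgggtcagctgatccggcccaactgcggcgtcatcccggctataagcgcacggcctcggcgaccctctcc
CTSL: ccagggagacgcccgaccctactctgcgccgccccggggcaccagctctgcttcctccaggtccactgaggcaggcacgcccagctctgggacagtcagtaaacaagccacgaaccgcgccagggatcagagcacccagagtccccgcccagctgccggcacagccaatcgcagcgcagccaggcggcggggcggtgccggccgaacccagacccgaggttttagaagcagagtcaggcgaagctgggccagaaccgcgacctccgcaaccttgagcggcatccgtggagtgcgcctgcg
The CTSA window holds 2 copies, whose first bases lie at -42 and -25 from the RefSeq start, and one of them is part of the longer form TCACGTGA. The CTSD window holds 1 copy at -47. No copy is in these letters of CTSL, and none is in the windows of CTSC, CTSH and CTSZ. Of 35116 promoter windows of this length, 2548 (7.26%) hold CACGTG and 344 (0.98%) hold TCACGTGA. A match is a description of the sequence and no binding was measured.

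The untreated lines differed in which cathepsins they express. CTSW, CTSH and CTSL were far higher in NB4, CTSZ and CTSD were higher in Kasumi-1, and the other 5 were not called, so that 3 of 10 cathepsins were called higher in NB4 where 22.7% of all 12302 genes tested were, and 2 of 10 were called lower where 29.7% were. Both shares are near these backgrounds. The median log2 difference was 0.079 over the 10 and -0.10 over all genes tested, and centring each sample on its median moved the latter to 0.04. Culture or library batch and cell line cannot be told apart in this comparison.

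CTSW, a papain-like protease of cytotoxic lymphocytes, measured 36.1, 33.5 and 38.1 FPKM in the NB4 controls and 0.474, 0.661 and 0.0888 FPKM in the Kasumi-1 controls. Every NB4 sample lay far above every Kasumi-1 sample. The log2 difference was 6.37 (SE 0.43, limma adjusted p = 1.51e-06), or 88.0 times the mean FPKM. The overlapping gene FIBP measured 17.4 to 18.2 FPKM in the NB4 controls and 14.5 to 15.3 FPKM in the Kasumi-1 controls, so it was present in the line where CTSW was near 0. The CTSW of Kasumi-1 control sample 2 was the highest of its group at 1.84% of the NB4 control mean. Leaving out one sample gave log2 differences from 5.77, without Kasumi-1 control sample 3, to 6.77, without Kasumi-1 control sample 2 (limma adjusted p = 1.41e-06 and 8.36e-06), and a pseudocount of 1 FPKM gave 4.73.

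Other genes of cytotoxic lymphocytes went with CTSW in part. NB4 controls held NKG7 at 54.2, 34.3 and 44.1 FPKM, PRF1, which encodes perforin, at 2.05, 3.74 and 2.69 FPKM, and CD3D, a chain of the T cell receptor complex, at 16.1, 13.5 and 20.4 FPKM. All 3 were higher in NB4, by 4.98, 4.57 and 4.76 on the log2 scale (limma adjusted p = 1.29e-05, 4.53e-07 and 2.06e-07). The defining markers CD2, GNLY, KLRD1, GZMA and GZMB were at 0 in every NB4 control, CD3E was at 0 in 2 of the 3, and CD3G was below 0.1 FPKM in all of them. Over the whole list of 10 lymphocyte markers the sum was 51.6 to 72.5 FPKM in the NB4 controls and 1.30 to 4.03 FPKM in the Kasumi-1 controls. In bulk RNA, more cells of a kind and more RNA per cell cannot be told apart. CST7, which encodes cystatin F, an inhibitor of cathepsins in leukocyte granules, followed the same order at 51.1, 67.7 and 60.3 FPKM in NB4 and 3.90, 6.51 and 1.82 FPKM in Kasumi-1 controls, a log2 difference of 4.0 (limma adjusted p = 1.10e-05).

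**Figure D2:**
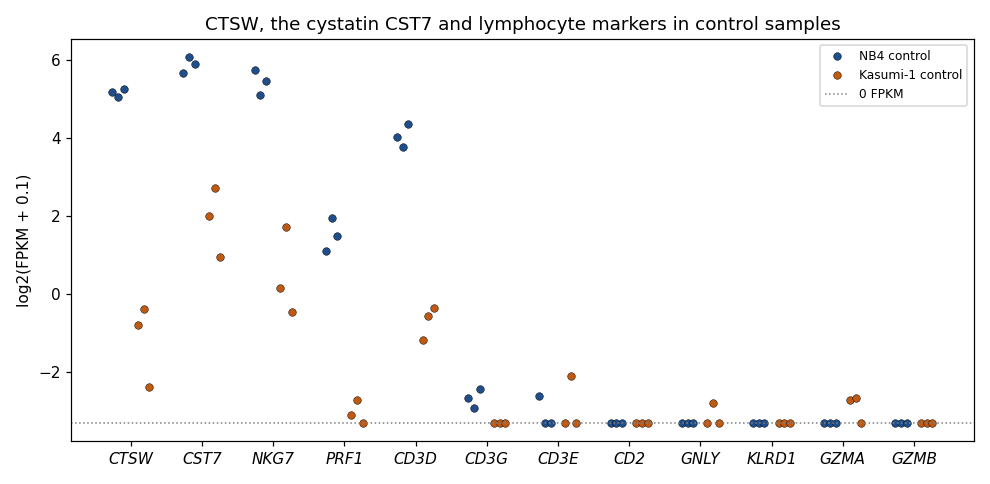
Levels as log2(FPKM + 0.1) of CTSW, CST7 and the 10 lymphocyte markers (vertical axis) in the 3 control samples of NB4 and of Kasumi-1, with the dotted line at 0 FPKM. CTSW, CST7, NKG7, PRF1 and CD3D stand high in NB4 while CD2, GNLY, KLRD1, GZMA and GZMB lie on the line in all NB4 points.

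CTSH, an aminopeptidase of the lysosome, showed a second large difference. It measured 25.8, 16.1 and 28.5 FPKM in the NB4 controls and 0.639, 1.49 and 0.719 FPKM in the Kasumi-1 controls, with no overlap. The log2 difference was 4.54 (SE 0.30, limma adjusted p = 1.46e-06), and 3.64 with a pseudocount of 1 FPKM. It ran from 4.33 to 4.88 on leaving out one sample. CTSL, a strong endopeptidase, was low in both lines but lower in Kasumi-1. Its level was 1.89, 2.17 and 2.35 FPKM in the NB4 controls and 0.251, 0.423 and 0.121 FPKM in the Kasumi-1 controls, and the groups did not overlap. The log2 difference was 2.70 (SE 0.28, limma adjusted p = 2.71e-05), and 1.31 with a pseudocount of 1 FPKM, since these levels are close to the value added before the logarithm. On leaving out one sample the CTSL difference ran from 2.38 to 3.00.

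CTSZ, a carboxypeptidase also called cathepsin X, was, of the 10, the one most shifted toward Kasumi-1. NB4 controls held 28.8, 35.7 and 34.4 FPKM and Kasumi-1 controls 97.4, 109 and 88.7 FPKM. The lowest Kasumi-1 control lay above the highest NB4 control by a wide margin, the log2 difference was -1.58 (SE 0.10, limma adjusted p = 1.41e-06) and the Kasumi-1 mean was 2.99 times that of NB4. The difference ran from -1.65 to -1.48 on leaving out one sample. CTSD, the main aspartic protease of lysosomes, measured 41.5, 59.4 and 51.6 FPKM in NB4 and 81.0, 93.8 and 79.5 FPKM in Kasumi-1 controls. The groups did not overlap, with a log2 difference of -0.75 (SE 0.13, limma adjusted p = 6.09e-04), or -0.87 to -0.61 on leaving out one sample. Scaling every sample to one FPKM sum brought the CTSD difference to -0.54 (limma adjusted p = 0.00290), under the minimum change.

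CTSS, the protease that trims the invariant chain, lay at the edge of the call. It measured 11.4, 7.64 and 8.57 FPKM in NB4 and 5.91, 6.63 and 6.47 FPKM in Kasumi-1 controls, all NB4 samples being higher. Its log2 difference of 0.51 (limma adjusted p = 0.00908) missed the minimum change, and it passed at 0.65 after median centring, at 0.72 after scaling to one FPKM sum and at 0.64 without NB4 control sample 2. CTSA, CTSB, CTSC and CTSK overlapped between the lines, with log2 differences of -0.25, 0.027, 0.13 and -0.31 and 95% intervals of -0.55 to 0.040, -0.16 to 0.22, -0.061 to 0.32 and -0.73 to 0.11. CTSB, the abundant cysteine protease of most cells, thus measured 10.8 ± 0.681 FPKM in NB4 and 10.6 ± 0.588 FPKM in Kasumi-1 controls (SD, n = 3). CTSK ran from 0.662 to 1.36 FPKM over all 12 samples, and of 5 osteoclast markers all were at 0 in every Kasumi-1 sample, while OCSTAMP alone reached 0.1 FPKM in any NB4 control.

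**Figure D3:**
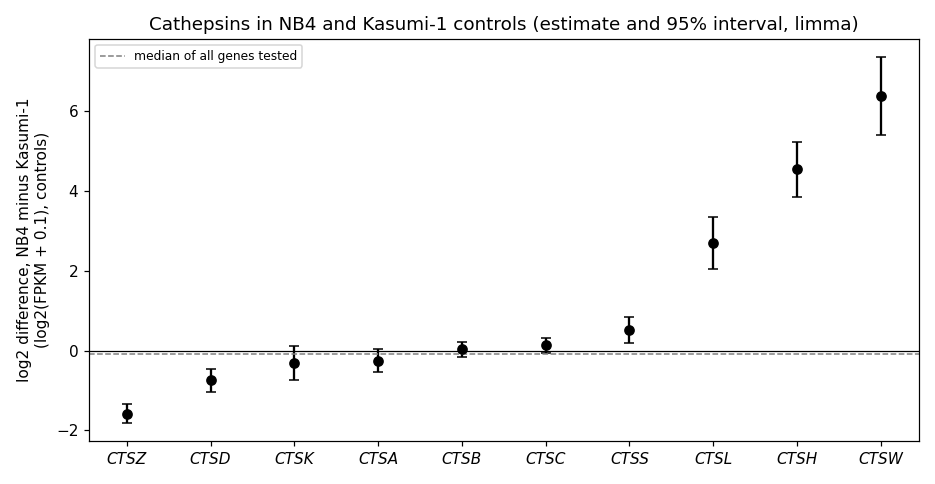
Log2 difference of each cathepsin between NB4 and Kasumi-1 controls (vertical axis, NB4 minus Kasumi-1 on log2(FPKM + 0.1)), with the estimate and its 95% interval from limma and the median of all genes tested as a dashed line. CTSW, CTSH and CTSL lie well above 0, CTSZ and CTSD lie below it, and CTSA, CTSB, CTSC and CTSK have intervals that span 0.

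The summed level of the 10 cathepsins was 229.7 ± 8.89 FPKM in NB4 and 266.7 ± 23.2 FPKM in Kasumi-1 controls (SD, n = 3), and each Kasumi-1 control lay above each NB4 control. As a share of all FPKM the sums were 0.0906% and 0.0911%, with ranges that overlapped. The make-up of that sum was different. CTSW gave 15.7% ± 1.33 of it in NB4 and 0.148% ± 0.0998 in Kasumi-1, and CTSH gave 10.3% ± 3.04 and 0.348% ± 0.140. CTSZ gave 14.3% ± 1.06 in NB4 and 36.9% ± 1.13 in Kasumi-1, and CTSD gave 22.1% ± 3.07 and 31.8% ± 0.340. CTSA held a like place in both, at 9.41% ± 1.33 and 9.63% ± 0.449. Under OGP46 the sum was 280.9 ± 9.96 FPKM in NB4 and 275.8 ± 2.35 FPKM in Kasumi-1, and the shares stayed in the same order of size within Kasumi-1 for the 6 most abundant members.

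**Figure D4:**
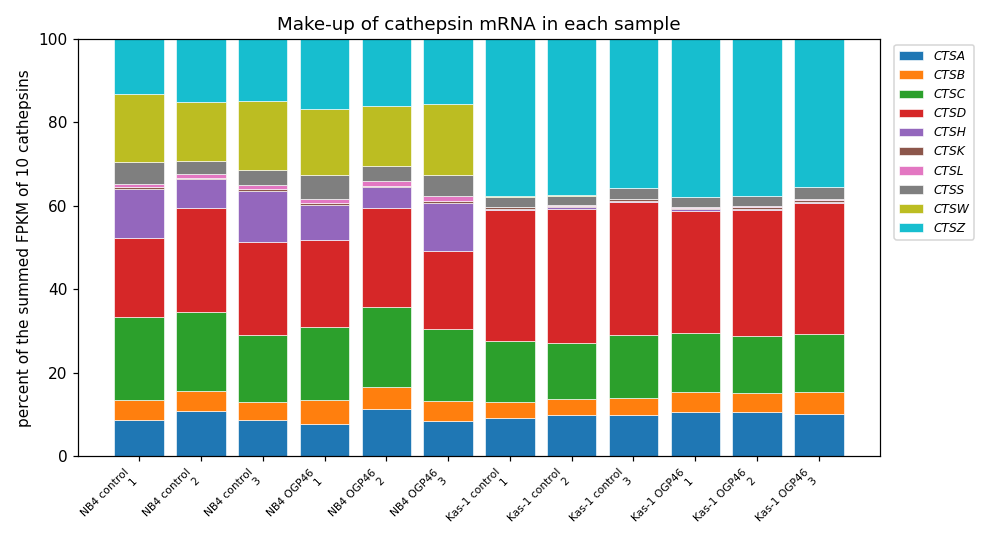
Share of each cathepsin in the summed FPKM of the 10 (vertical axis, percent), with one stacked bar per sample. The 6 NB4 bars hold broad CTSW and CTSH bands that are almost missing from the 6 Kasumi-1 bars, where CTSZ and CTSD fill most of the height.

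In NB4, OGP46 samples held more of most cathepsins than controls, by amounts under the minimum change. None of the 10 was called, where 1.45% of all 11750 genes tested were called up, and the largest log2 difference was 0.56, for CTSL. The replicate block left the members at none while the share of all genes called up became 5.06%. The FPKM of NB4 as a whole were higher under OGP46, with 81.9% of the genes tested above 0 and a median log2 fold change of 0.18, which centring brought to -0.04. The median of the 10 cathepsins was 0.35, 9 of them were above 0 and 9 were above the all-gene median. In 5 of the 10, CTSB, CTSC, CTSL, CTSW and CTSZ, every OGP46 sample lay above every control, as it did in 32.7% of all genes tested. Within same-numbered pairs, 8 of the 10 were higher under OGP46 in all 3 pairs, CTSH and CTSK being the exceptions. The share of all genes with that pattern was not counted, so it is not read as particular to cathepsins. Among all genes tested, 183 were called in either direction, which became 0 to 2 when any one sample other than OGP46 sample 2 was left out, 396 without that sample, and 0 after centring or after scaling to one FPKM sum. Every call in NB4 named below that was made without the block carries this limit, and each of these genes was also called with the block.

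Markers of monocytes and macrophages were higher together with the cathepsins in NB4. Their summed level over 11 genes was 16.0 to 17.3 FPKM in controls and 25.3 to 29.6 FPKM under OGP46. Of 6 tested, ITGAM, ITGAX and CD68 were called up, at 1.08, 1.11 and 0.62 (limma adjusted p = 0.0233, 0.0335 and 0.0399), where 1.45% of all genes were. With the block CD14 and CSF1R were also called up, at 1.67 and 0.60 (limma adjusted p = 4.94e-04 and 0.00921, against 0.0692 and 0.254 without it), where 5.06% of all genes were. FCGR1A, the remaining gene tested, was called in neither fit, at 0.23 (limma adjusted p = 0.588 without the block). Of the lymphocyte markers CD3D was called up under OGP46 with the block, at 0.72 (limma adjusted p = 2.23e-04, and 0.0720 without). FCGR3A, MRC1, CD163 and MSR1 were at 0 in every NB4 sample. In Kasumi-1 the sum was 14.1 to 18.5 FPKM in controls and 19.7 to 22.9 FPKM under OGP46, with none called. The part of these markers in the cathepsin values was not tested.

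Judged by the adjusted p alone, with no minimum change, only CTSZ passed in NB4 (2.46% of all genes passed upward in this way). It measured 28.8, 35.7 and 34.4 FPKM in controls and 45.1, 45.9 and 44.7 FPKM under OGP46, with no overlap. The log2 fold change was 0.46 (SE 0.093, limma adjusted p = 0.0455), and 0.24 after centring, and leaving out any one sample gave limma adjusted p of 0.0555 to 0.159. With the replicate block 6 members passed, CTSB, CTSC, CTSL, CTSS, CTSW and CTSZ, all of them higher, where 22.9% of all genes passed in either direction. Their adjusted p under the block were 0.00777, 0.0371, 0.00526, 0.00428, 0.0215 and 0.00407 by limma, against 0.0541, 0.115, 0.0711, 0.130, 0.0957 and 0.0455 without it. With the block and centring together, CTSS passed upward (limma adjusted p = 0.0305), where 5.12% of all genes did, and CTSH passed downward (limma adjusted p = 0.0319), where 9.26% did. Over the whole table this setting gave 602 genes upward and 1088 downward by the adjusted p alone, against 289 upward among 302 without block or centring.

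CTSL measured 1.89, 2.17 and 2.35 FPKM in NB4 controls and 2.69, 3.52 and 3.41 FPKM under OGP46. All 3 OGP46 samples were higher, with a mean 1.5 times that of the controls, and the log2 fold change was 0.56 (SE 0.14, 95% interval 0.23 to 0.89) or 0.34 after centring. CTSS measured 11.4, 7.64 and 8.57 FPKM in controls and 15.6, 9.95 and 14.7 FPKM under OGP46. The groups overlapped because OGP46 sample 2 lay below control sample 1, and sample 2 was the lowest of its group in both. The CTSS log2 fold change was 0.53 (SE 0.20, limma adjusted p = 0.130), and without OGP46 sample 2 it was 0.73 (limma adjusted p = 0.0435) and passed the call.

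CTSB measured 10.7, 11.5 and 10.1 FPKM in NB4 controls and 15.2, 14.6 and 13.4 FPKM under OGP46, a log2 fold change of 0.42 with no overlap. CTSW measured 36.1, 33.5 and 38.1 and then 42.9, 40.8 and 49.3 FPKM, again with no overlap but a smaller log2 fold change of 0.30, of which 0.080 was left after centring. CTSC, the dipeptidyl peptidase that activates granule proteases, measured 43.9, 44.7 and 37.1 and then 47.5, 55.0 and 49.8 FPKM. All OGP46 samples were higher, and its log2 fold change of 0.28 became 0.059 after centring. CTSA measured 19.1 to 26.0 FPKM in controls and 20.9 to 32.5 FPKM under OGP46, and CTSD measured 41.5 to 59.4 and 54.2 to 67.1 FPKM. For both the groups overlapped, with log2 fold changes of 0.25 and 0.23 that became 0.032 and 0.0073 after centring.

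CTSH in NB4 differed more between sample numbers than between treatments. It measured 25.8, 16.1 and 28.5 FPKM in controls and 22.1, 14.6 and 32.9 FPKM under OGP46, and sample 2 was the lowest of both groups. The log2 fold change was -0.053 with a 95% interval of -0.74 to 0.64. Sample 2 of either NB4 group was also the lowest for CTSS and the highest for CTSA and CTSD. CTSK was higher under OGP46 in samples 1 and 3 and lower in sample 2, with a log2 fold change of 0.41 (95% interval -0.037 to 0.85).

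**Figure D5:**
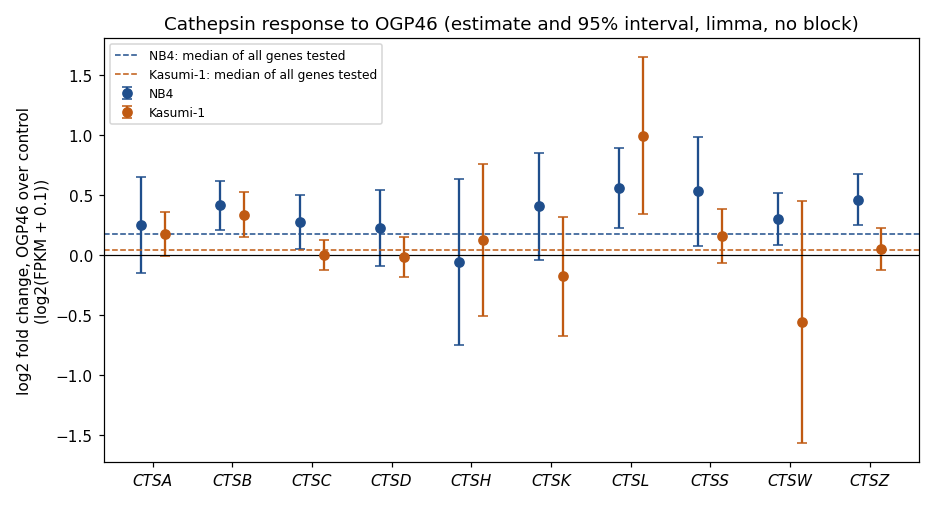
Log2 fold change of each cathepsin under OGP46 in NB4 and in Kasumi-1 (vertical axis, log2(FPKM + 0.1)), with the estimate and its 95% interval from limma without a block and the median of all genes tested in each line as a dashed line. CTSL shows the largest value in both lines, at 0.56 and 1.00, and the intervals of CTSH, CTSK and CTSW in Kasumi-1 are wide.

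In Kasumi-1, CTSL and CTSB were the cathepsins of the 10 whose OGP46 samples all lay above the controls. No member was called without the block, where 0.0169% of all 11835 genes were called up, and with the block CTSL was called, where 0.270% of all genes were. CTSL measured 0.251, 0.423 and 0.121 FPKM in controls and 0.634, 0.634 and 0.499 FPKM under OGP46. The lowest OGP46 sample lay above the highest control, the mean was 2.22 times that of the controls, and OGP46 was higher in all 3 pairs. The log2 fold change was 1.00 (SE 0.29, limma adjusted p = 0.162, and 0.0408 with the replicate block). The level is under 1 FPKM in every Kasumi-1 sample, and with a pseudocount of 1 FPKM the log2 fold change was 0.33. It ranged from 0.68 without control sample 3, the lowest control, to 1.30 without control sample 2, the highest, with limma adjusted p of 0.253 and 0.115.

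CTSB measured 10.1, 11.2 and 10.4 FPKM in Kasumi-1 controls and 13.2, 12.2 and 14.8 FPKM under OGP46, also with no overlap. Its log2 fold change was 0.34 (SE 0.083, limma adjusted p = 0.121), under the minimum change, and its adjusted p with the block was 0.0489. CTSB and CTSL were thus the 2 members that passed the adjusted p alone with the block, where 2.44% of all genes passed upward. OGP46 samples all lay above the controls in 17.4% of all genes. The median of the 10 cathepsins was 0.090 and that of all genes 0.05.

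The most abundant of the 10 in Kasumi-1, CTSZ, CTSD and CTSC, had groups that overlapped. CTSZ measured 97.4, 109 and 88.7 FPKM in controls and 103, 104 and 98.6 FPKM under OGP46, and the log2 fold change was 0.053 with a 95% interval of -0.12 to 0.23. CTSD, at 79.5 to 93.8 and 80.4 to 87.4 FPKM, gave -0.017 (95% interval -0.18 to 0.15), and CTSC, at 37.4 to 39.5 and 37.6 to 38.4 FPKM, gave 0.0020 (95% interval -0.12 to 0.12). Under median centring CTSC and CTSZ turned to -0.065 and -0.014, and under scaling to one FPKM sum CTSD turned to 0.0027. CTSA, at 23.5 to 29.1 and 28.3 to 29.4 FPKM, gave 0.18, and CTSS, at 5.91 to 6.63 and 6.37 to 8.21 FPKM, gave 0.16, both with overlapping groups. CTSW, CTSH and CTSK, near or below 1 FPKM in this line, gave -0.56, 0.13 and -0.18 with intervals of -1.56 to 0.45, -0.50 to 0.76 and -0.67 to 0.32, each of which spans 0.

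Whether OGP46 acted differently on a cathepsin in the 2 lines was tested as the interaction of line and treatment over the 12 samples. No member passed, where 0% of 12309 genes did by limma (1348 had an unadjusted p below 0.05), and none passed with the block, where 1.93% of all genes did. CTSZ had the smallest p of the members, with a log2 fold change larger by 0.41 in NB4 (95% interval 0.14 to 0.68, limma adjusted p = 0.266, and 0.0827 with the block). For CTSL the difference was -0.44 (95% interval -1.20 to 0.33), and it turned to 0.086 with a pseudocount of 1 FPKM. For CTSB, which was higher in both lines, it was 0.079 (95% interval -0.18 to 0.34), or -0.070 after centring. CTSC gave 0.28 (95% interval 0.040 to 0.51, limma adjusted p = 0.394). The other 6 members ran from -0.18 for CTSH to 0.86 for CTSW, each with an interval that spans 0. Of the listed genes, CTSG, NEU1, PRTN3, CD14 and ITGAM passed with the block, at -1.18, 0.45, -0.85, 1.77 and 0.94 (limma adjusted p from 0.00923 to 0.0342, and from 0.151 to 0.638 without it). A p that misses the threshold does not show that the lines respond alike.

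Over the 12 samples, after subtraction of each line's mean of log2(FPKM + 0.1), the cathepsins that varied most alike were CTSA and CTSD (Pearson r = 0.80) and CTSD and CTSZ (r = 0.76), and those least alike were CTSH and CTSK (r = -0.34). These are descriptions over samples that share treatment and sample number, with no test. By the same measure, over 10903 genes tested in both lines, the 5 genes most like CTSL were ZNF646 (r = 0.95), ZKSCAN3 (0.92), WASHC2A (0.91), ZNF778 (0.91) and NR2F2 (0.90). ZNF646 itself measured 3.64 ± 0.0245 FPKM in NB4 controls and 4.04 ± 0.212 under OGP46, a far smaller step than that of CTSL.

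Genes that belong to the pathway were read from lists. Of 5 other cathepsins, none was called under OGP46 in NB4 without the block. Between the controls, 3 of 3 tested were called lower in NB4 than in Kasumi-1, where 29.7% of all genes were. For CTSG, at -1.59 (limma adjusted p = 0.0147), the control groups of the lines overlapped. The neutrophil granule protease CTSG measured 18.2, 86.3 and 29.5 FPKM in NB4 controls and 5.82, 40.7 and 9.45 FPKM under OGP46. It was lower in each same-numbered pair, but sample 2 was high in both groups and the groups overlapped, and the log2 fold change of -1.45 had a limma adjusted p of 0.228 without the block and 1.21e-05 with it. In Kasumi-1 CTSG measured 111, 144 and 79.8 FPKM in controls and 100.4, 105 and 69.7 FPKM under OGP46, with a log2 fold change of -0.27 (limma adjusted p = 0.549). CTSF, another papain-like protease, measured 0.186 to 0.393 FPKM in NB4 and 7.14 to 8.87 FPKM in Kasumi-1 controls, a log2 difference of -4.45 (limma adjusted p = 1.57e-07). CTSO differed by -3.43 (limma adjusted p = 4.19e-07). CTSE was low in both lines, and CTSV measured at most 0.199 FPKM.

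Of 12 inhibitors, 5 were at 0 in every sample: CST6, SERPINA3, SERPINB3, SERPINB4 and SERPINB13. In NB4, 2 of the 6 tested rose under OGP46, where 1.45% of all genes were called up, and none fell without the block. With the block and centring CST7 was called lower, at -0.68 (limma adjusted p = 0.00629). CSTA, the stefin that blocks cysteine cathepsins in the cytosol, measured 39.3, 35.4 and 29.5 FPKM in controls and 49.6, 52.8 and 53.9 FPKM under OGP46, with a log2 fold change of 0.59 (limma adjusted p = 0.0385). SERPINA1, which inhibits neutrophil elastase, measured 1.05, 1.10 and 1.26 and then 2.83, 2.01 and 2.68 FPKM, with 1.06 (limma adjusted p = 0.0299). The most abundant inhibitor in NB4, CSTB, measured 85.2, 71.2 and 74.8 and then 115, 85.0 and 113 FPKM, with 0.43 (limma adjusted p = 0.0895). In Kasumi-1 none of 7 was called without the block, and with it CST7 was called lower, at -0.69 (limma adjusted p = 0.0111, and 0.471 without). Between the lines, CST7 was the one of 7 inhibitors tested called higher in NB4, where 22.7% of all genes were. Another 4 were called lower, where 29.7% of all genes were, the largest being SERPINB6 at -6.78 and SERPINB1 at -4.21 (limma adjusted p = 4.29e-07 and 1.39e-07).

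Of 10 genes for maturation, sorting and partners, 1 of 9 tested rose under OGP46 in NB4, where 1.45% of all genes were called up. This was NEU1, the sialidase that CTSA holds in an active complex, at 15.7 ± 1.48 FPKM in controls and 23.8 ± 3.28 FPKM under OGP46 (SD, n = 3, no overlap, log2 fold change 0.59, limma adjusted p = 0.0450). GLB1, the other partner of CTSA, gave 0.20 (limma adjusted p = 0.172). None of 9 was called in Kasumi-1. In the untreated lines 7 of 9 were lower in NB4, where 29.7% of all genes were called lower. Among them were SORT1, a sorting receptor, at -5.66, GNPTAB, which builds the mannose 6-phosphate tag, at -2.15 and the abundant saposin precursor PSAP at -1.37. Another 2 were higher, where 22.7% of all genes were, NAGPA at 1.27 and IGF2R at 0.89 (limma adjusted p from 5.84e-08 to 2.37e-05 for the 5 named). LGMN, the protease that processes several cathepsins, was below 0.1 FPKM in all 12 samples.

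Substrates showed the opposite order to CTSW and CTSH. All 4 substrates tested were called lower in NB4 controls, where 29.7% of all genes were. ELANE, neutrophil elastase, measured 0.504, 3.30 and 14.5 FPKM in NB4 and 1445, 1717 and 1352 FPKM in Kasumi-1 controls, and PRTN3, proteinase 3, measured 146, 449 and 259 and 2941, 3677 and 2523 FPKM. The ELANE value of 14.5 FPKM is from NB4 control sample 3, which held the most CD34 and KIT of any NB4 sample. Differences of ELANE given here include that sample, and its source of ELANE was not tested. CD74, the target of CTSS, measured 2.09, 0.647 and 2.25 and 33.0, 34.1 and 29.1 FPKM, a log2 difference of -4.36 (limma adjusted p = 7.26e-06). Under OGP46 in NB4 no substrate was called without the block, and with it ELANE, PRTN3 and AZU1 were called lower, at -2.17, -1.36 and -0.62 (limma adjusted p = 0.00234, 1.39e-05 and 6.39e-04 with the block, and 0.192, 0.155 and 0.185 without). In Kasumi-1 all 4 tested were lower under OGP46, but each missed the minimum change and none was called in either fit. CD74, ELANE, PRTN3 and AZU1 gave -0.31, -0.49, -0.52 and -0.39 (limma adjusted p = 0.0315, 0.0123, 0.0125 and 0.0377 with the block, and 0.109, 0.0898, 0.170 and 0.227 without). The groups did not overlap for the first 3, and the share of all genes with such a fall was not counted. CTSC, which matures the serine proteases of these granules, had all its NB4 OGP46 samples above the controls, as given above. GZMA and GZMB, granzymes matured by CTSC in lymphocytes, were at 0 in every NB4 sample.

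The 26 other lysosomal genes were a frame for the cathepsins. In NB4 all 26 had a log2 fold change above 0, where 81.9% of all genes tested did. Their median was 0.37, close to the 0.35 of the cathepsins, and 4 were called up, where 1.45% of all genes were. SMPD1, acid sphingomyelinase, measured 1.20, 0.906 and 1.30 FPKM in controls and 2.33, 1.98 and 2.42 FPKM under OGP46 (log2 fold change 0.94, limma adjusted p = 0.0364). The others were FUCA1 at 0.72, the lysosomal channel MCOLN1 at 0.62 and the cholesterol transporter NPC1 at 0.60 (limma adjusted p = 0.0451, 0.0470 and 0.0335). The most abundant of the list, LAMP1, gave 0.21 (limma adjusted p = 0.143). In the fit with the block, 16 of the 26 had an adjusted p under 0.05, all of them upward, where 22.9% of all genes did in either direction. In Kasumi-1, 24 of 26 were above 0, where 62.0% of all genes tested were, with a median of 0.17. None was called there, where 0.0169% of all genes were called up. No gene of the 10 cathepsins or of these 26 was called in NB4 after centring each sample or scaling it to one FPKM sum without the block, when no gene of all 11750 was. With the block and centring SMPD1 was called up, at 0.72 (limma adjusted p = 0.0111).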

How the data were processed

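Poly(A) mRNA of 12 samples (3 per group) was sequenced from libraries made with a stranded kit. The authors deposited 1 FPKM value per gene symbol and sample. The submitters' processing notes name Trimmomatic, HISAT2, Cufflinks, HTSeq and hg38, without roles; versions, annotation and use of strand in counting are not given in the sources used here. Depth is unknown, because no counts were used, so no counting interval or floor is given and precision rests on 3 samples per group. Incubation is 48 h in the labels and methods, while a figure legend of the study gives a longer time. After removal of 27 symbols turned into dates, 20003 genes remained. Members, lists and tests were chosen with earlier results of these data known. The named genes are all 10 members, the genes of each list past the call rule by size (at most 4 each way) and its most abundant gene, and the 5 genes most like CTSL. Genes named for other reasons, such as CTSO, CTSV, GLB1, CD3E, FIBP and the listed genes at 0, were chosen after their values were seen.

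From the FPKM, log2(FPKM + 0.1) was tested by limma 3.58.1 in R 4.3.3 (empirical Bayes with a trend), checked on simulated data. OGP46 was set against control within each line, controls between lines, and line by treatment over 12 samples. Alternatives were pseudocounts of 1 and 0.01, no filter, a minimum of 1 FPKM, median centring, TPM scaling (one FPKM sum), a replicate block, and leaving out each sample. Dropping the minimum fold change was added after seeing the data. Deviations of same-numbered control and OGP46 samples correlated by 0.355, 0.622 and 0.197 in NB4 (11750 genes) and 0.218, 0.157 and 0.395 in Kasumi-1 (11835 genes), all above 0.1. Differently numbered samples reached 0.224 in NB4 and 0.101 in Kasumi-1, so this bar alone does not set the pairs apart. Among genes averaging 5 FPKM or more, same-numbered samples gave at least 0.439 in NB4 and 0.416 in Kasumi-1. Differently numbered ones gave at most 0.289 and 0.0809 there. The label numbers were taken to pair samples within a line, which the study does not state, and the block results rest on it. Controls of the lines were not paired (mean r -0.01).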

Additional observations from a re-analysis of the deposited data

How the results depend on the processing

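With 3 samples per group, unknown depth and cell line confounded with batch, small differences are not resolved, and values of members under 1 FPKM depend on the pseudocount. The 5 cathepsins called between the lines kept their direction in the alternatives run for that comparison, and the count was 5 or 6 (with TPM scaling CTSD was lost and CTSS gained). By the adjusted p alone, with no minimum change, 6 of the 10 passed, and the share of all genes was not counted. By the unadjusted limma p, 9387 of all 12302 genes tested were below 0.05, so 6 of 10 is not read as particular to cathepsins. CTSA joined the 6 with the block (limma adjusted p = 0.0147, and 0.103 without). Because controls of the lines were not paired, no CTSA difference is read from that block. In NB4 the count of 0 members called became 1 without NB4 OGP46 replicate 2 (leave-one-out range 0 to 1), 1 with no minimum fold change, 6 with no minimum and the replicate block, and 2 with no minimum, block and centring. In Kasumi-1 the count of 0 became 1 with the replicate block, alone or with median centring, and 2 with no minimum fold change and the block, alone or with centring. Apart from the values given in the report, the block changed no other call of the 10 cathepsins.

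Directions turned only for log2 values that were not called. In Kasumi-1 they were CTSC at -0.065 and CTSZ at -0.014 (median centring, with or without the block) and CTSD at 0.0027 (TPM scaling). In the line by treatment test they were CTSL at 0.086 (pseudocount 1), CTSA at -0.074 (median centring, with or without the block) and -0.069 (TPM scaling) and CTSB at -0.070 and -0.065 in the same settings. Leaving out one sample gave ranges of -0.34 to 0.24 for CTSH in NB4; in Kasumi-1 of -0.011 to 0.027 for CTSC, -0.061 to 0.058 for CTSD, -0.081 to 0.47 for CTSH, -0.36 to 0.025 for CTSK and -0.020 to 0.13 for CTSZ; between lines of -0.019 to 0.071 for CTSB; and in the line by treatment test of -0.097 to 0.22 for CTSA and -0.52 to 0.11 for CTSH.

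Genes called over the whole table, 183 in NB4, numbered 117 with pseudocount 1, 6 with no filter, 0 with median centring or TPM scaling, 730 with the block, 391 with block and centring, and 0 to 396 on leaving out one sample, the highest without NB4 OGP46 replicate 2. With no minimum fold change they numbered 302, with the block also 2692, and with block and centring 1690. In Kasumi-1 the 4 genes became 2 with pseudocount 1, 1 with no filter, 24 with a minimum of 1 FPKM, 18 with median centring or TPM scaling, 73 with the block, 93 with block and centring, and 0 to 11 on leaving out one sample. With no minimum fold change they were 10, with the block also 421, and with block and centring 1174. In the line by treatment test the 0 became 14 with pseudocount 1 or no filter, 237 with the block, 144 with block and centring, and 0 to 1 on leaving out one sample. The causes were not tested.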
